A study of Mus musculus with 4 samples.

Results

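The 34 genes described here are endothelial cell genes, which are transcribed by the cells that line blood and lymphatic vessels, some of them also by other cells. They were listed by symbol as a measure of endothelial RNA in libraries of mammary basal cells, and were matched to the gene numbers of the files through the RefSeq gene table of GRCm38.p6. All 34 were found among the 17630 genes measured in each library. Endothelial cells are held together by a vascular cadherin and by claudin junctions, respond to vascular endothelial growth factor (VEGF) and angiopoietin through receptor tyrosine kinases, and are specified by transcription factors of the ETS and SOX families. In the mammary fat pad, capillaries run along the ducts, and lymphatic vessels drain the stroma between them. Mammary basal cells form the outer layer of the ductal epithelium.

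RNA-seq was analysed for basal cells of wild-type mice in 4 groups, with 1 library in each group. Control sorted basal cells came from mice not treated with 6-OHDA (6-hydroxydopamine, which is toxic to sympathetic nerve fibers). The 6-OHDA sorted basal cells came from mice treated with it. For the colonies, sorted basal cells were cultured in Matrigel, a basement membrane gel, either without SP or with SP, which stands for salbutamol and phenylephrine, agonists of adrenergic receptors. The titles mark the control colonies with 0 and the SP colonies with 200, and no unit is given. Which libraries were sorted cells and which were colonies was read from the titles and treatments. Strain, age and the number of mice behind each library are not given in the labels. The antibodies listed in the methods for sorting included those to CD31 (the product of the member Pecam1), CD45 and TER119, which mark endothelial cells, leukocytes and erythroid cells. Basal cells are defined as negative for such lineage labels, with CD24 and high CD29, a gate meant to leave endothelial cells out. The gate used for each library was not checked here.

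Levels are given as FPKM (fragments per kilobase of transcript, scaled to the number of fragments of the library), and a change is the difference in log2(FPKM + 1) between 2 libraries, a scale that understates the change of low genes. Without replicates, no test was made, and each change is a difference between 2 libraries. Where the mean of the 2 libraries compared reached 1 FPKM, a gene was counted as higher or lower if its change was over 0.3 in size. Over all genes, the sum of FPKM was 508071 for control sorted cells, 517504 for 6-OHDA sorted cells, 577631 for control colonies and 588202 for SP colonies. Read counts were not analysed here. From the steps between low values, 1 FPKM on a transcript of 1 kilobase stood for between 16.6 and 18.0 fragments, a rough estimate, so that a value of 0.1 FPKM on such a transcript rested on between 1.66 and 1.80 fragments.

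The cell type given in the labels was checked against 15 basal and 16 luminal epithelial genes. Krt14, the keratin of the basal layer, was the most abundant of the basal genes in all 4 libraries, at 3595 FPKM in control and 2633 FPKM in 6-OHDA sorted cells, and at 3298 FPKM in control and 6920 FPKM in SP colonies. None of the 15 basal genes was at 0 in any library. The contractile genes of the list were lower in culture, with Myh11 at 467 FPKM in control sorted cells and 11.2 FPKM in control colonies. Luminal genes were also present, and the keratin gene Krt8 was at 560 FPKM in control sorted cells and 698 FPKM in control colonies. Other luminal genes differed more between these libraries, with Elf5 at 0.63 and 22.5 FPKM, Foxa1 at 1.42 and 15.2 FPKM and Cldn3 at 13.4 and 82.2 FPKM. Of the 16 luminal genes, 10 were higher and 1 was lower in control colonies, where 55.7% of all genes tested were higher. The 6-OHDA library stood apart from the others. Salivary gland secretory genes, of which 21 were measured, summed to 16669 FPKM or 3.22% of that library, against 37.4 FPKM in control sorted cells, and Bpifa2 was its most abundant gene at 7277 FPKM. This list was drawn up with earlier results on these data known, and the result for the members in the 6-OHDA library is also given below with these genes left out of the scaling.

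In sorted basal cells the endothelial genes were present at substantial levels. They summed to 1103 FPKM in control sorted cells (0.217% of the library) and to 1250 FPKM in 6-OHDA sorted cells (0.242%). In control sorted cells, 33 of the 34 members were at 1 FPKM or more and 22 were at 10 FPKM or more, with a median of 17.8 FPKM. In the 6-OHDA library all 34 were at 1 FPKM or more, 23 were at 10 FPKM or more, and the median was 20.0 FPKM. Colonies held much less of this RNA. The members summed to 73.4 FPKM in control colonies (0.0127%) and to 41.3 FPKM in SP colonies (0.0070%), with medians of 0.155 and 0.145 FPKM. In control colonies 25 members were below 1 FPKM and 3 of these were listed at 0, and in SP colonies 26 were below 1 FPKM and 5 of these were listed at 0. In a bulk library, fewer cells of a type and less RNA per cell cannot be told apart.

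**Figure D1:**
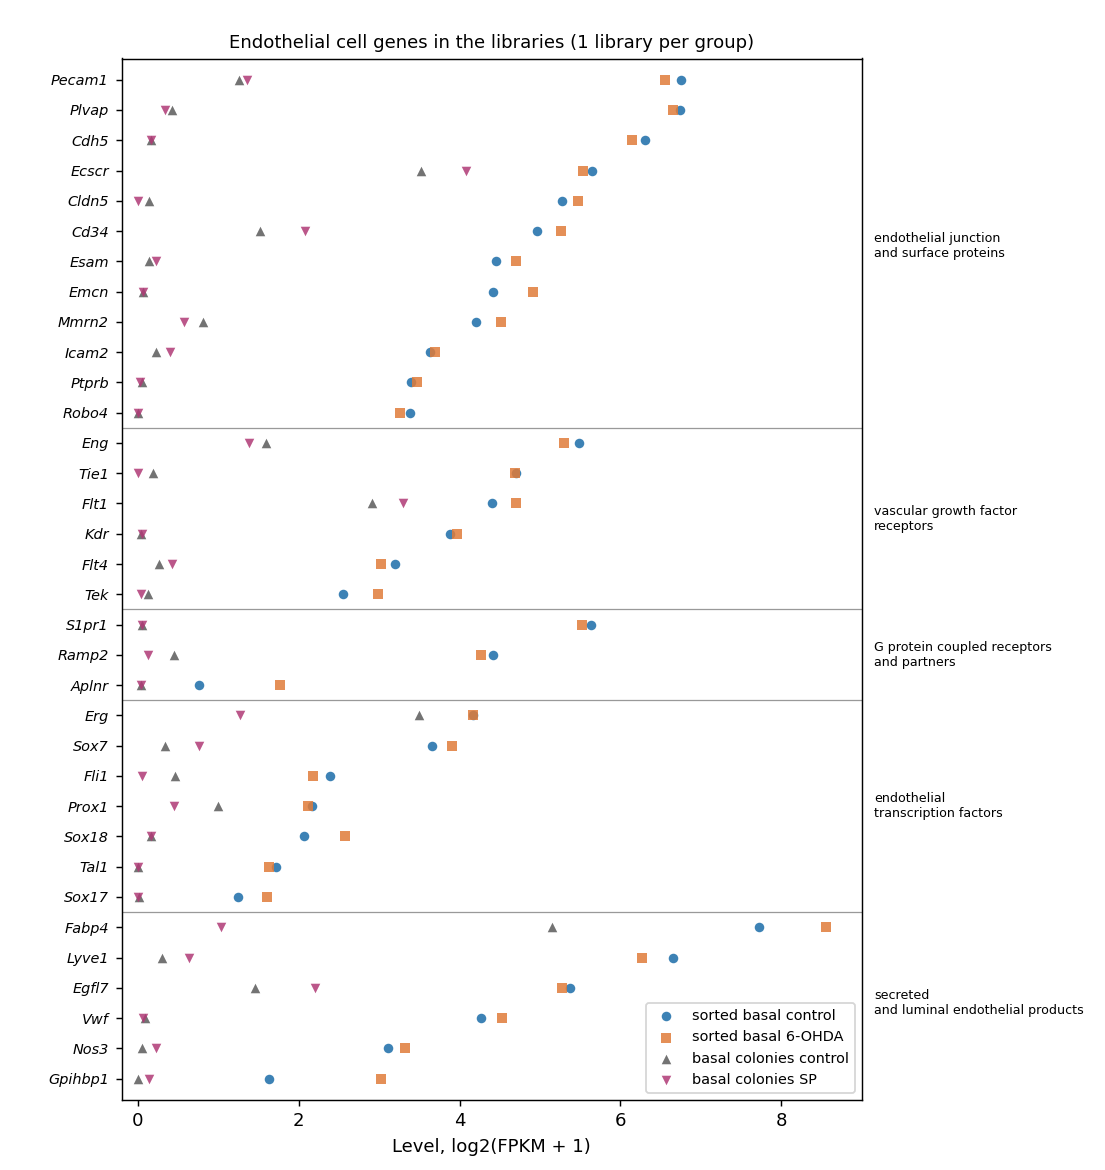
Level of each of the 34 endothelial cell genes in the 4 libraries, as log2(FPKM + 1) on the horizontal axis, grouped by role and ordered within a role by the level in control sorted cells. Each point is 1 library, and there are no replicates. In control colonies all 34 points lie to the left of those of control sorted cells, and Fabp4, Ecscr, Erg and Flt1 are the members at over 6 FPKM there.

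Junction and surface proteins formed the largest group, with 12 members. Pecam1 (NCBI Gene 18613, chr11:106654213-106715281 in GRCm38.p6), which encodes the adhesion molecule CD31, was at 107 FPKM in control sorted cells, 93.0 FPKM in 6-OHDA sorted cells, 1.39 FPKM in control colonies and 1.56 FPKM in SP colonies. Its level ranked 737 of 17630 genes in control sorted cells and 11472 in control colonies. Cdh5 (NCBI Gene 12562, chr8:104101613-104144504), the vascular cadherin of adherens junctions, was at 77.9 and 69.4 FPKM in control and 6-OHDA sorted cells and at 0.12 FPKM in each colony library. Plvap, which forms the diaphragms of fenestrated endothelium and of caveolae, was at 106 and 99.9 FPKM in the sorted cells and at 0.34 FPKM in control and 0.27 FPKM in SP colonies. These 3 genes were thus within a narrow range of each other in sorted cells, and in colonies Pecam1 alone of them was above 1 FPKM.

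Cldn5, the claudin of endothelial tight junctions, was at 37.6 FPKM in control and 43.4 FPKM in 6-OHDA sorted cells, at 0.10 FPKM in control colonies and at 0 in SP colonies. Esam, an adhesion molecule of the same junctions, was at 20.9 and 25.1 FPKM in sorted cells and at 0.10 and 0.17 FPKM in control and SP colonies. Emcn, a sialomucin of capillary and venous endothelium, was at 20.4 FPKM in control sorted cells, 29.0 FPKM in 6-OHDA sorted cells and 0.05 FPKM in both colony libraries. All 3 were therefore near 0 in culture. Robo4, a guidance receptor that stabilizes vessels, was at 9.40 and 8.55 FPKM in sorted cells and was listed at 0 in both colony libraries. Ptprb, a phosphatase that acts on the vascular cadherin and on the TIE2 receptor, was at 9.50 and 10.1 FPKM in sorted cells and at 0.04 and 0.02 FPKM in control and SP colonies. Icam2 was at 11.4 and 12.0 FPKM in sorted cells and at 0.17 and 0.32 FPKM in colonies, and encodes a ligand for leukocyte integrins. Mmrn2, a matrix protein laid down by endothelial cells, was at 17.4 and 21.8 FPKM in sorted cells and at 0.76 and 0.49 FPKM in colonies.

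The other 2 surface proteins were, like Pecam1, above 1 FPKM in both colony libraries. Cd34, a sialomucin of capillaries that is also made by stromal and blood progenitor cells, was at 30.2 and 37.3 FPKM in control and 6-OHDA sorted cells and at 1.87 and 3.23 FPKM in control and SP colonies. Ecscr, which encodes a small membrane protein of endothelial cells, was at 49.1 and 45.2 FPKM in sorted cells and at 10.45 FPKM in control and 15.85 FPKM in SP colonies. In SP colonies Ecscr was the most abundant of all 34 members. Summed over the 12 surface proteins, the level was 496 FPKM in control sorted cells, 495 FPKM in 6-OHDA sorted cells, 15.4 FPKM in control colonies and 22.1 FPKM in SP colonies.

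Of the 6 vascular growth factor receptors, Kdr encodes the main VEGF receptor of blood vessels and was at 13.8 FPKM in control sorted cells, 14.7 FPKM in 6-OHDA sorted cells, 0.03 FPKM in control colonies and 0.04 FPKM in SP colonies. Flt1 (NCBI Gene 14254, chr5:147561604-147726438), a VEGF receptor that also acts as a decoy, was at 20.3 and 25.04 FPKM in sorted cells and at 6.53 and 8.87 FPKM in control and SP colonies. Both are receptors for the same ligand, and in colonies Flt1 was present where Kdr was close to 0. Flt4, the VEGF-C receptor of lymphatic vessels, was at 8.19 and 7.12 FPKM in sorted cells and at 0.20 and 0.35 FPKM in colonies. The angiopoietin receptor gene Tek was at 4.86 FPKM in control and 6.92 FPKM in 6-OHDA sorted cells and at 0.09 and 0.03 FPKM in control and SP colonies. Its partner Tie1 was higher in sorted cells, at 25.1 and 24.7 FPKM, and was at 0.14 FPKM in control colonies and at 0 in SP colonies. Eng, a co-receptor for ligands of the TGF-β family that stromal cells also carry, was at 43.8 and 38.4 FPKM in sorted cells and at 2.03 and 1.60 FPKM in colonies.

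Of the 3 G protein coupled receptors and their partners, S1pr1, the sphingosine 1-phosphate receptor that tightens the endothelial barrier, was at 48.5 FPKM in control sorted cells, 45.1 FPKM in 6-OHDA sorted cells and 0.04 FPKM in both colony libraries. Ramp2, which pairs with the adrenomedullin receptor, was at 20.4 and 18.2 FPKM in sorted cells and at 0.37 and 0.09 FPKM in colonies. Aplnr, the apelin receptor of sprouting endothelium, was the lowest member in control sorted cells at 0.69 FPKM. It was at 2.42 FPKM in 6-OHDA sorted cells and at 0.03 FPKM in both colony libraries. None of these 3 receptor genes reached 1 FPKM in a colony library, and their sum went from 69.7 FPKM in control sorted cells to 0.44 FPKM in control colonies.

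The 7 transcription factors had a median of 3.48 FPKM in control sorted cells, where that of the surface proteins was 25.5 FPKM. Erg (NCBI Gene 13876, chr16:95359169-95586600), an ETS factor that maintains endothelial identity and is also made in developing cartilage, was at 16.95 and 16.92 FPKM in control and 6-OHDA sorted cells, at 10.27 FPKM in control colonies and at 1.41 FPKM in SP colonies. Fli1, a related ETS factor shared with blood cells, was at 4.26 and 3.51 FPKM in sorted cells and at 0.38 and 0.04 FPKM in colonies. Among the SOX factors of vessel formation, Sox7 was at 11.6 and 14.0 FPKM in sorted cells and at 0.27 and 0.70 FPKM in colonies. Control colonies thus held Erg at over 10 FPKM, while the other 6 factors were at 1 FPKM or less there. Sox18, a factor of lymphatic specification, was at 3.20 and 4.98 FPKM in sorted cells and at 0.12 FPKM in both colony libraries. Sox17, its relative in arteries, was at 1.38 and 2.06 FPKM in sorted cells, at 0.01 FPKM in control colonies and at 0 in SP colonies. Tal1, a regulator of blood and endothelial progenitors, was at 2.29 and 2.10 FPKM in sorted cells and at 0 in both colony libraries. Prox1, the factor that sets lymphatic identity, was at 3.48 and 3.34 FPKM in sorted cells and at 1 and 0.37 FPKM in colonies.

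The last 6 members were grouped as secreted and luminal products. Fabp4 (NCBI Gene 11770, chr3:10204342-10208616), a fatty acid binding protein of capillary endothelium that adipocytes make in large amounts, was the most abundant member in 3 libraries, at 210.2 FPKM in control sorted cells, 374 FPKM in 6-OHDA sorted cells and 34.4 FPKM in control colonies. In SP colonies it was at 1.05 FPKM. Gpihbp1, which carries lipoprotein lipase to the capillary surface, was at 2.09 FPKM in control and 7.10 FPKM in 6-OHDA sorted cells, at 0 in control colonies and at 0.10 FPKM in SP colonies. Lyve1 (NCBI Gene 114332, chr7:110850607-110862953), the hyaluronan receptor of lymphatic vessels and some macrophages, was at 99.5 and 75.9 FPKM in sorted cells and at 0.23 and 0.56 FPKM in colonies. Both genes of lipid handling were thus higher in the 6-OHDA than in the control sorted cells, and the lymphatic gene was lower. Vwf, the clotting factor stored by endothelial cells and platelets, was at 18.3 and 22.1 FPKM in sorted cells and at 0.07 and 0.05 FPKM in colonies. Nos3, the endothelial nitric oxide synthase, was at 7.66 and 9.02 FPKM in sorted cells and at 0.04 and 0.17 FPKM in colonies. Egfl7, a matrix protein secreted by endothelial cells, was at 40.6 and 37.5 FPKM in sorted cells and at 1.74 and 3.59 FPKM in colonies.

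The first comparison asked how the members differed between the control libraries of the colonies and of the sorted cells. These libraries differ in culture, sorting and preparation together, which cannot be told apart, and each of them also serves as the control of another comparison below. All 34 members were lower in control colonies, with a median change of -3.38 and a range from -6.35 for Lyve1 to -0.67 for Erg. Of the 34, 32 passed the filter on low values, and all 32 were lower by more than 0.3, where 26.6% of the 12244 genes tested were lower. None was higher, where 55.7% of the genes tested were. The median change was 0.45 over all genes tested and 0.12 over all 17630 genes. Most members passed the filter through the sorted library alone and could then only be lower. The 9 members at 1 FPKM or more in control colonies were lower too, from -0.67 for Erg and -1.16 for Prox1 to -5.49 for Pecam1. A change beyond -3 was found for 21 members and for 264 or 2.16% of all genes tested.

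Lyve1, Plvap (-6.32) and Cdh5 (-6.14) had the largest falls among the members. Of the genes tested, 10 fell by more than Lyve1, 11 by more than Plvap and 14 by more than Cdh5. S1pr1 followed with -5.57 and Pecam1 with -5.49. By role, the median change was -3.88 for surface proteins, -3.39 for growth factor receptors and -3.97 for G protein coupled receptors and partners. For the group of secreted and luminal products it was -3.49. For transcription factors it was -1.72, and their low levels limit the size of a fall on this scale. The summed level of the members was 15.0 times as high in control sorted cells as in control colonies. Most of what was left in colonies came from few genes, since Fabp4, Ecscr, Erg and Flt1 held 84.0% of the members' sum there and 26.9% in control sorted cells. For the other 30 members, a count chosen after the values were seen, the sum went from 807 to 11.7 FPKM. Scaling by the median ratio of the genes tested moved the median of all genes from 0.45 to -0.02 and the share of higher genes among those past the threshold from 67.7% to 49.5%. The members' median was then -3.44, and 32 were lower, where 4784 of 11974 genes tested were lower, after 3252 of 12244.

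Subsets of the members were also taken by where else they are made, which overlap and do not cover all 34. For 15 core endothelial members, such as Pecam1, Cdh5, Kdr and Tie1, the median change in control colonies was -3.39. Erg was counted as a core member, although cartilage also makes it. For 15 members that other cell types also make, such as Cd34, Fabp4 and Eng, it was -3.44. The lymphatic members Flt4, Lyve1 and Prox1 summed to 111 FPKM in control sorted cells, 86.4 FPKM in 6-OHDA sorted cells, 1.43 FPKM in control colonies and 1.28 FPKM in SP colonies, with Lyve1 as the main part in sorted cells. All 3 subsets of the members were thus lower in colonies than in sorted cells.

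The next comparison asked how the members differed between 6-OHDA and control sorted basal cells. All 34 passed the filter. By the threshold of 0.3, 8 members were higher, or 23.5%, where 15.8% of the 11749 genes tested were higher, and 1 member was lower, or 2.94%, where 8.35% of the genes tested were lower. The other 25 members differed by less. The median change of the members was 0.07, and that of all genes tested was 0.06. The sum of the members was 1.13 times as high in the 6-OHDA library, and without Fabp4 it was 893 FPKM in control and 876 FPKM in 6-OHDA sorted cells. Of the 15 core endothelial members, 5 were higher and 0 were lower, with a median change of 0.08. Pecam1 and Cdh5 among them had changes of -0.19 and -0.16.

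The members higher in the 6-OHDA library were Gpihbp1 (1.39), Aplnr (1.02), Fabp4 (0.83), Sox18 (0.51), Emcn (0.49), Tek (0.43), Sox17 (0.36) and Mmrn2 (0.31). Of these, Gpihbp1, Aplnr, Sox17 and Sox18 were below 4 FPKM in the control library. Lyve1 was the member that was lower, with a change of -0.38, and 622 genes tested fell by more. Flt4 and Prox1, the other lymphatic members, had changes of -0.18 and -0.05. Rescaled to the same sum over all genes, 7 members were higher and 1 was lower, with a median of 0.05. Of 11734 genes tested, 1613 were then higher and 1123 lower. The share of higher genes among those past the threshold moved from 65.4% to 59.0%. Rescaled to the same sum without the salivary genes, 10 members were higher and 1 was lower, with a median of 0.09. Of 11759 genes tested, 2087 were then higher and 889 lower, and this share moved from 65.4% to 70.1%. Flt1 and Cd34 then passed the threshold, at 0.31 each, after 0.29 each. After scaling by the median ratio, 7 members were higher and 1 was lower, where 1358 of 11717 genes tested were higher and 1336 lower. The median of the members was 0.01, and Mmrn2 no longer passed at 0.25. This scaling moved the same share from 65.4% to 50.4%.

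The third comparison asked how the members differed between SP and control basal colonies. It shares its control library with the comparison of colonies and sorted cells. Of the 34 members, 26 did not pass the filter on low values, 7 of the 34 had the same value in both libraries, and the median change was 0.00, where that of all 17630 genes was -0.03 and that of the genes tested -0.07. Most members were near 0 in both libraries. Among the 8 members that passed, 4 were higher, where 11.7% of the 11849 genes tested were higher, and 2 were lower, where 19.8% of the genes tested were lower. The higher members were Egfl7 (0.74), Cd34 (0.56), Ecscr (0.56) and Flt1 (0.39), and the lower members were Fabp4 (-4.11) and Erg (-2.23). Pecam1 and Eng, the remaining genes that passed, had changes of 0.10 and -0.22.

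No gene tested fell by more than Fabp4, and Fabp4 was the 1 gene that fell by more than Erg. The FPKM of Fabp4 was 32.8 times and that of Erg 7.28 times as high in control as in SP colonies. Over all 34 members the sum in SP colonies was 0.563 times that in control colonies. Without Erg this ratio was 0.632, and without Fabp4 it was 1.03, from 38.98 FPKM in control and 40.2 FPKM in SP colonies, so Fabp4 set the direction of the sum. Without both it was 1.35, from 28.7 and 38.8 FPKM. Cdh5, Emcn, S1pr1, Aplnr, Sox18, Robo4 and Tal1 had the same value in both libraries, at 0.12 FPKM or less. After scaling by the median ratio the same number of members, 4 and 2, was higher and lower, where 1759 of 11878 genes tested were higher and 1771 lower, while the share of higher genes among all those past the threshold moved from 37.1% to 49.8%.

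Another 40 genes of endothelium were measured beside the members. They summed to 1058 FPKM in control sorted cells, 1183 FPKM in 6-OHDA sorted cells, 262 FPKM in control colonies and 443 FPKM in SP colonies. The most abundant in the sorted cells, and over the 4 libraries together, was Selp, the P-selectin of venules and platelets, at 256 and 229 FPKM in control and 6-OHDA sorted cells and at 0.15 and 0.02 FPKM in control and SP colonies. Ackr1, the chemokine receptor of venules, was at 96.7 and 95.0 FPKM in sorted cells and at 0 in both colony libraries, and the water channel gene Aqp1 was at 106 and 135 FPKM in sorted cells and at 0.09 and 0.15 FPKM in colonies. These 3 genes of blood vessels were near 0 in culture, as were the members Cdh5 and Cldn5. For the counts of this and the later lists, 55.7% of all genes tested were higher and 26.6% lower between the controls. With 6-OHDA these shares were 15.8% and 8.35%, and with SP 11.7% and 19.8%. A gene below 1 FPKM in 1 library passed the filter through the other library alone, which fixed its direction. Of the 32 genes that passed the filter between the controls, 26 were lower and 4 were higher in control colonies. The higher ones, Hey1, Ephb4, Sox13 and Exoc3l2, were named after their values were seen, and Ephb4 is also made by epithelium. In 6-OHDA sorted cells 12 of 36 were higher, led by Gja5 (0.88), Ly6c1 (0.87) and Myct1 (0.80), and 2 were lower. In SP colonies 3 of 14 were higher and 6 were lower. Ly6a, the most abundant of the list in SP colonies, from 50.4 to 266 FPKM, and Ly6c1, from 1.81 to 13.9 FPKM, had the largest rises with SP. Both belong to the Ly6 family of near-identical genes, whose fragments can be shared, and Ly6a is also known from epithelial cells. The rise of Ly6a with SP was larger than that of the sum of the 40 genes, so Ly6a set the direction of that sum.

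Ligands of the vascular receptors were taken as a list of 23 measured genes. Vegfa, whose product binds the receptors of the members Kdr and Flt1, was at 198 FPKM in control sorted cells, 192 FPKM in 6-OHDA sorted cells, 11.2 FPKM in control colonies and 42.0 FPKM in SP colonies. Angpt2, a ligand of the receptor encoded by Tek, was at 24.9 and 19.4 FPKM in sorted cells, at 0.10 FPKM in control colonies and at 0 in SP colonies. Angpt1, another ligand of that receptor, named after its values were seen, went the other way, at 0.36 and 0.94 FPKM in sorted cells and at 10.8 and 7.09 FPKM in colonies. The most abundant was Thbs1, an inhibitor of vessel growth, at 1353 and 1172 FPKM in sorted cells and at 253 and 260 FPKM in colonies. Between the controls, 14 of 18 genes that passed the filter were lower in colonies and 4 were higher. In 6-OHDA sorted cells 3 of 17 were higher and 3 were lower, and in SP colonies 3 of 15 were higher and 4 were lower.

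Genes of other cell types were measured beside the members in the same libraries, and their part in the results was not tested. The list of mural cells, which wrap the vessels, had 14 genes that summed to 97.7 FPKM in control sorted cells, 106 FPKM in 6-OHDA sorted cells, 120.2 FPKM in control colonies and 168 FPKM in SP colonies. Its most abundant gene, Steap4, was at 32.1 FPKM in control sorted cells and 85.8 FPKM in control colonies, while Rgs5, a defining gene of pericytes, went from 19.2 to 0.10 FPKM between the same libraries, and Kcnj8 was at 2.67 FPKM and at 0. Between the controls 7 of 11 genes were lower and 2 were higher. In 6-OHDA sorted cells 3 of 12 were higher and 1 was lower, and in SP colonies 2 of 7 were higher and 4 were lower, with Ndufa4l2 going from 0.72 to 71.0 FPKM. Steap4 between the controls and Ndufa4l2 with SP each rose by more than the sum did, so these genes set its direction. Rgs5 was at 0.14 FPKM and Kcnj8 at 0 in SP colonies. In control colonies 8 of the 14 mural cell genes were below 1 FPKM, as were 25 of the 34 members, while Notch3, named after its values were seen, was higher there, at 22.5 FPKM against 7.57 FPKM in control sorted cells.

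Leukocyte genes were low beside the endothelial genes. Their 18 genes summed to 21.9 and 18.8 FPKM in control and 6-OHDA sorted cells and to 4.56 and 5.55 FPKM in control and SP colonies, and Cd68 was the most abundant in each library, at 6.05 FPKM in control sorted cells. Ptprc, which encodes CD45, was at 0.77 FPKM in control and 0.47 FPKM in 6-OHDA sorted cells and at 0 in both colony libraries. Pecam1, whose product CD31 was labelled in the same antibody mix, was at 107 FPKM in control sorted cells. Between the controls 4 of 4 leukocyte genes that passed were lower in colonies, where 26.6% of all genes tested were lower. Lyz2, Cd52 and Cd79a among them passed through the sorted library alone and could then only be lower. In 6-OHDA sorted cells 2 of 7 were lower and 0 were higher. In SP colonies the 1 gene that passed differed by less than 0.3. The 9 measured genes of erythroid cells and platelets summed to 22.8 and 21.8 FPKM in sorted cells and to 1.99 and 1.64 FPKM in colonies. Itga2b, a platelet integrin gene, was the most abundant of them, at 15.0 and 10.8 FPKM in sorted cells. Of 4 that passed in the 6-OHDA comparison, Hba-a1 and Hbb-bs were higher, and Pf4 and Itga2b were lower. The globin genes have near-identical copies, so their values are uncertain. Between the controls 2 of 2 were lower, Itga2b and Pf4, which passed through the sorted library alone and could then only be lower. None passed in the SP comparison.

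Fabp4 and Cd36 are made by adipocytes as well as by capillaries, so adipocyte genes were compared beside them. The 13 genes summed to 73.3 FPKM in control sorted cells, 90.7 FPKM in 6-OHDA sorted cells, 41.6 FPKM in control colonies and 20.0 FPKM in SP colonies, with Pnpla2, a lipase gene of many tissues, as the most abundant in control sorted cells and in both colony libraries. In SP colonies 4 of the 4 genes that passed were lower, where 19.8% of all genes tested were lower. Among them, Lpl went from 4.98 to 0.54 FPKM and Cd36 from 2.42 to 0.07 FPKM. Both passed the filter through control colonies alone and could then only be lower. The defining adipocyte genes Adipoq and Plin1 were at 1.66 and 1.23 FPKM in control colonies and at 0.06 FPKM and 0 in SP colonies. In control sorted cells, where Fabp4 was at 210.2 FPKM, Adipoq was at 0.18 FPKM and Plin1 at 0.11 FPKM. In 6-OHDA sorted cells 3 of 6 adipocyte genes were higher, Cd36, Pparg and Lpl, and 0 were lower, and between the controls 4 of 5 were lower and 1 was higher in colonies. Fabp4 and these adipocyte genes were lower with SP, a count that the filter partly fixed, and whether they are linked was not tested.

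For Erg, which cartilage also makes, 12 cartilage and joint genes were added after the values were seen. They summed to 61.1 FPKM in control sorted cells, 76.2 FPKM in 6-OHDA sorted cells, 202 FPKM in control colonies and 107 FPKM in SP colonies. In control colonies 6 of 7 that passed were higher than in control sorted cells and 0 were lower. Of all genes tested, 55.7% were higher there. Cnmd, Col2a1 and Chad passed through the colony library alone and could then only be higher. In SP colonies 6 of 7 were lower than in control colonies and 0 were higher, where 19.8% of all genes tested were lower. In 6-OHDA sorted cells 2 of 4 were higher. The largest falls with SP were those of Cnmd, from 54.2 to 11.2 FPKM, Scx, from 16.1 to 5.46 FPKM, and Col2a1, a collagen gene of cartilage, from 6.64 to 2.24 FPKM. Sox9, the most abundant of the list over the libraries, is also made by mammary epithelium and was at 37.9 FPKM in control and 46.1 FPKM in SP colonies. Acan, another defining gene of cartilage, was at 0.03 and 0.01 FPKM. Their part in the level of Erg was not tested.

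Fibroblast genes moved in the 6-OHDA comparison where most members did not. The 16 genes summed to 535 and 675 FPKM in control and 6-OHDA sorted cells and to 117 and 85.6 FPKM in control and SP colonies, with Gsn, which epithelium also makes, as the most abundant. In 6-OHDA sorted cells 10 of 16 were higher, led by the collagen genes Col3a1 (2.26), Col1a1 (1.91) and Col1a2 (1.68). The 2 lower genes were Clec3b (-0.42) and Gsn (-0.41). Pdgfra (0.28), Pcolce (0.27), Dcn (0.22) and Fbn1 (0.04) stayed within the threshold. Between the controls 8 of 12 were lower and 1 was higher in colonies, and in SP colonies 7 of 10 were lower and 1 was higher. Of 8 Schwann cell genes, led by Sox10 at 50.6 FPKM in control sorted cells, 3 of 6 were higher in 6-OHDA sorted cells, 4 of 5 were lower and 1 was higher in control colonies, and 2 of 4 were lower in SP colonies. Basal epithelial genes were lower between the controls for 9 of 15 and higher for 2. With SP, 8 of the 15 basal genes were higher and 2 were lower, and with 6-OHDA 1 was higher and 2 were lower. Of the luminal genes, 10 of 16 were higher and 1 was lower in control colonies than in control sorted cells. Of all genes tested, 55.7% were higher there. With SP 1 luminal gene was higher and 7 were lower, and with 6-OHDA 1 of 15 was higher and 5 were lower.

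**Figure D2:**
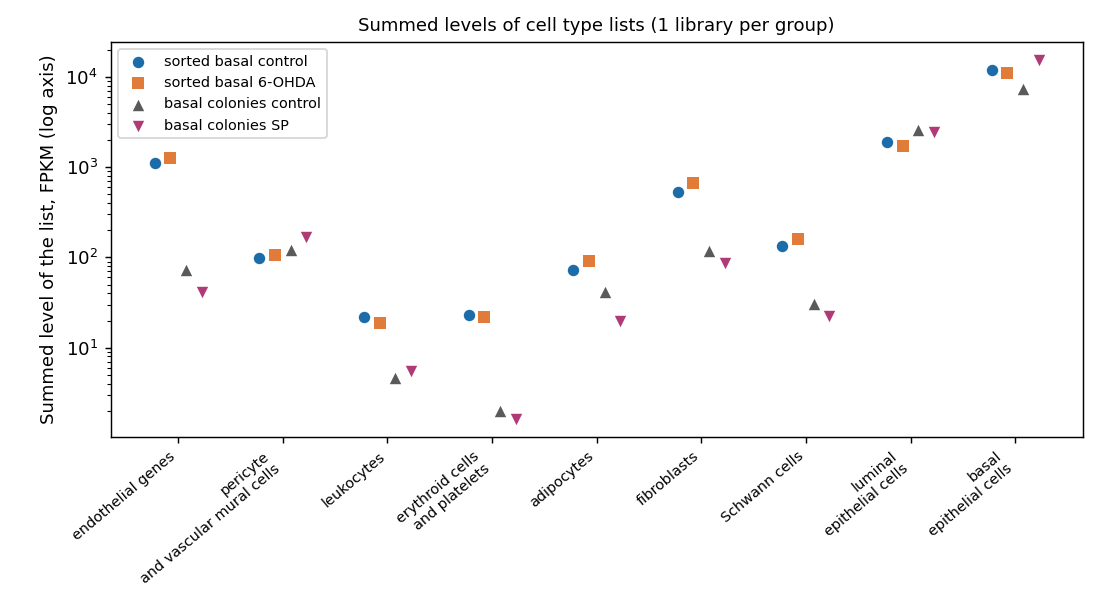
Summed level of each cell type list in the 4 libraries, in FPKM on a log axis. Each point is 1 library, and there are no replicates. The endothelial genes go from 1103 FPKM in control sorted cells to 73.4 FPKM in control colonies, while the basal epithelial genes go from 11940 to 7413 FPKM.

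Promoter sequences of 14 of the members were found in the RefSeq table of GRCm38.p6, in 20 windows that run from upstream of a transcription start to just downstream of it. Binding motifs of ETS and SOX factors were searched on both strands. The ETS core CAGGAA was present in 9 of the 20 windows (45.0%), for Cd34, Egfl7, Emcn, Eng, Erg, Robo4, Tek and Tie1, and in 30.6% of all 32851 windows of the table. The ETS core CCGGAA was present in 1 of the 20 (5%), that of Kdr, and in 14.9% of all windows. The SOX motif ACAATG was found in 1 window (5%), that of Erg, and in 12.6% of all, and the SOX motif ACAAAG in 4 (20.0%), for Egfl7, Eng, Prox1 and Tek, and in 18.7% of all. A match describes the letters and does not show that a factor binds. Stretches of 40 bases are shown for Emcn, which was near 0 in control colonies, and for Cd34 and Erg, which were not. The capitals mark TTCCTG, which is CAGGAA read on the other strand, and each sequence is written along the strand of its gene. They lie at chr3:137340994-137341033 (Emcn, plus strand), chr1:194938663-194938702 (Cd34, plus strand) and chr16:95459365-95459404 (Erg, minus strand), upstream of an annotated start and outside the exons of GENCODE vM21. The start for Erg is an internal one, within an intron of its longer transcripts.
Emcn: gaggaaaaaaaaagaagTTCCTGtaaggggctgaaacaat
Cd34: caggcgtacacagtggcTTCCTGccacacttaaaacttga
Erg: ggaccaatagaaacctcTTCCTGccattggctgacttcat

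The motif was thus present upstream of members that were near 0 in colonies and of members that were not. In the GENCODE vM21 annotation, exons of 8 members overlap exons of another gene: Cd34, Ecscr, Egfl7, Eng, Nos3, Prox1, Ramp2 and Sox17. Whether the fragments were assigned by strand is not given in the sources used here, so the values of these members are less certain than those of the others. Among the protein coding partners, Atg9b, on the strand opposite to Nos3, was at 0.18 FPKM in control sorted cells and 6.53 FPKM in control colonies, and Agpat2, opposite to Egfl7, was at 6.89 and 19.6 FPKM. Fpgs, opposite to Eng, was at 17.5 and 14.1 FPKM. Each of these partners was above its member in control colonies and below it in control sorted cells. Vps25, on the same strand as Ramp2, was at 23.6 and 75.5 FPKM, above Ramp2 in both. The partner of Ecscr, 1700066B19Rik, was at 0.15 FPKM in each of these libraries, far below Ecscr.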

How the data were processed

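The authors deposited 1 table of FPKM values for each of the 4 libraries, with 2 decimals. The submitters' processing notes name Bowtie2, RSEM 1.3.1, DESeq2 1.4.5 and the mouse genome mm10, and the annotation is not given in the sources used here. FPKM values are not counts, so no count model was run. Of 17630 gene numbers, 17512 matched RefSeq genes on GRCm38.p6, the same build as mm10.

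Levels were compared as log2(FPKM + 1) with Python 3.11.15, numpy 2.4.6 and pandas 2.3.3, and drawn with matplotlib 3.10.9. Genes whose mean over the libraries compared reached 1 FPKM were held against a threshold of 0.3 on the log2 scale, while medians of the members cover all 34. Depth was estimated from the steps between FPKM values of 0.6 or less in genes with 1 transcript and an effective length from 0.4 to 1.5 kilobases, assuming fragments of 250 bases. Between 226 and 241 genes entered each fit, with scores from 0.43 to 0.46 (1 is perfect). With fragments of 150 to 300 bases, the estimate ran from 15.1 to 18.9 fragments for 1 FPKM on 1 kilobase.

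The named genes are all 34 members, the basal and luminal markers and, of each other list, the most abundant gene and up to 3 genes with the largest change in each comparison. Not every gene the rule takes is given in the text, and defining markers named beside them lie partly outside it. The members and lists were chosen with earlier results of these data known. The alternatives were other pseudocounts, filters, scalings, thresholds and subsets of the members, and sums in place of medians. Changes and counts were checked on simulated data. A planned comparison of protein sequences was not made.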

Additional observations from a re-analysis of the deposited data

How the results depend on the processing

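With 1 library per group, a value was taken to move when it shifted by 0.3 or more on the log2 scale, and a count when it shifted by over 1.5 times. Between the control libraries, the median of -3.38 was -4.89 with a pseudocount of 0.1, -1.85 with a pseudocount of 5 and -3.95 at a mean FPKM of at least 5, while that of all genes tested went from 0.45 to 0.50, 0.31 and 0.43. The log2 ratio of summed FPKM was -3.91. It was -4.52 without Fabp4, -4.93 without Fabp4 and Erg, and -6.10 without Fabp4, Ecscr, Erg and Flt1, which were chosen after seeing the data. Of the 15 core members, 13 passed the filter, and all 13 were lower, where 26.6% of all genes tested were lower. In control colonies 3 of the 15 were at 1 FPKM or more. The others that passed did so through the sorted library alone and could then only be lower. With 6-OHDA, the count of 8 higher members was 4 with a pseudocount of 5 and at a mean of at least 5, 2 at a threshold of 1, and 5 among core members. Over all genes, the 1857 of 11749 higher became 804 of 11749 with a pseudocount of 5, 1066 of 8222 at a mean of at least 5 and 123 of 11749 at a threshold of 1. The 1 lower member became 0 at a threshold of 1, where 981 lower genes became 106, and among core members. With SP, the median of 0.00 was -0.92 at a mean of at least 5, where few members are left, the log2 ratio of sums was -0.83, and without Fabp4 and Erg it was 0.44. The 4 higher members became 2 with a pseudocount of 5 and at a mean of at least 5, 0 at a threshold of 1 and 1 among core members. Over all genes, the 1385 of 11849 higher became 956 of 11849, 993 of 9259 and 237 of 11849 under the first 3 of these settings. The 2 lower members became 5 with no filter, where 2351 of 11849 lower genes became 2716 of 17630, and 1 among core members and without Fabp4. The higher filter and the subsets count fewer genes, and no filter counts more. Otherwise the cause was not tested. For single members, 415 values under other pseudocounts and scalings moved by less than 0.3 and 95 by more. None of those past 0.3 changed its sign, which another pseudocount cannot do. With 6-OHDA, values near 0 did turn when the scaling left out the salivary genes. Tie1 went from -0.02 to 0.0009 and Erg from -0.002 to 0.02.

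With 1 library per group the spread between mice and cultures is unknown. Values near 0 in colonies rest on few fragments, so ratios there are imprecise. The salivary transcripts of the 6-OHDA library and the culture, sorting and preparation of the colonies cannot be told apart from the conditions.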
